A study of Mus musculus with 96 samples.

Results

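The transcripts of Kv1 potassium channels and their beta subunits were followed in single neurons of the lateral superior olive (LSO), an integration center of the auditory brainstem. The members were taken by name: the alpha subunit genes Kcna1, Kcna2, Kcna3, Kcna4, Kcna5 and Kcna6, and the beta subunit genes Kcnab1, Kcnab2 and Kcnab3. All 9 were found among the 38887 genes of the expression table by their Ensembl identifiers. Each neuron had been patched in an acute slice from C57BL/6J mice of both sexes in the second postnatal week, around hearing onset, and its cytoplasm was aspirated after the recording. Principal neurons (pLSOs), which ascend to the midbrain, comprised the firing types Onset (n = 41) and Sustained (n = 11). Lateral olivocochlear neurons (LOCs), which project back to the cochlea, numbered 28, and 8 negative controls had been made by touching the slice with a pipette tip. No treatment or transgene is named for any group, and the classes rest on the firing label alone.

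The 80 neurons are those left after 6 of 86 labelled neurons and 2 of 10 labelled controls were set aside, because their labels or values had differed from a table of the study in an earlier comparison. The neurons held between 1175 and 6276 genes at 1 TPM or more, with medians of 2560.5 in pLSOs and 2394 in LOCs. The 4 pLSO markers (Spp1, Maf, Kcnh7 and Slc17a6) were each detected in 69.2% to 96.2% of pLSOs and in 3.57% to 28.6% of LOCs. The 4 LOC markers (Calca, Ucn, Isl1 and Nxph1) were detected in 67.9% to 92.9% of LOCs and in 0% to 28.8% of pLSOs. The study reported each marker as differing between the classes in these same neurons, so their separation is no independent check. In controls, 75% held a pLSO marker and 62.5% a LOC marker, with sums of up to 229 and 326 TPM. At least 1 of 5 oligodendrocyte markers was listed in 92.3% of pLSOs, 100% of LOCs and 100% of controls, with summed levels of 0 to 6658, 1 to 5083 and 389 to 7794 TPM. Astrocyte markers (5 genes) were listed in 69.2% of pLSOs and 64.3% of LOCs, with sums of up to 2930 and 13459 TPM, and microglia markers (6 genes) in 51.9% and 64.3%, with sums of up to 1782 and 503 TPM. In LOCs, the astrocyte gene Aldh1l1 and the microglia gene Tmem119 were at 0. The astrocyte gene Slc1a2 was listed in 35.7% of LOCs at a mean of 1102 TPM, and in 46.2% of pLSOs at 239 TPM. These means rested on an estimated 27.5 and 9.06 reads per neuron, with medians of 0 TPM. The LOC at 13459 TPM held 43.6% of the class sum. Levels do not compare between genes on this scale, as described further on, and sums over genes share this limit. The microglia genes C1qb and P2ry12 were each listed in 35.7% of LOCs (32.7% and 23.1% in pLSOs). The part of these genes in the results was not tested. The controls were shallow, with an estimated 1501 to 104724 reads (median 23281) against 120708 or more in every neuron. These estimates cover reads assigned to genes and were worked out from the listed values. Their medians lie below those of the mapped reads that the study gave for its neurons and controls. The labels tie no neuron to an animal, so each class counts as 1 sample, no test was made between classes, and intervals cover counting error only.

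Kv1 channels open at voltages close to rest and let potassium leave the cell. Each channel is a tetramer of alpha subunits, which form the pore and the voltage sensor, and cytoplasmic beta subunits dock below it and alter gating and trafficking. In the auditory brainstem this low-threshold current is known for holding neurons to a single, well-timed spike at the onset of a depolarization. Kcna1 and Kcna2 encode Kv1.1 and Kv1.2, the main axonal subunits in the brain. Kcnab1 encodes a beta subunit that can confer fast inactivation, and Kcnab2 encodes the most widespread beta subunit.

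The alpha subunit genes all encode the same signature in the selectivity filter of the pore. It is shown here because it makes the family visible at the level at which reads are assigned to one member or another. The following windows of 60 bases were taken from the coding exons of the Gencode vM21 transcripts (GRCm38, coordinates of the window, sequence in the direction of the gene), and the capitals mark the 18 bases that encode the filter signature.
Kcna1 (chr6:126642204-126642263, minus strand): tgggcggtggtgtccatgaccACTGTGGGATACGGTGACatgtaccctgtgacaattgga
Kcna2 (chr3:107105203-107105262, plus strand): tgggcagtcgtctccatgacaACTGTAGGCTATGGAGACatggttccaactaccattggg
Kcna3 (chr3:107037590-107037649, plus strand): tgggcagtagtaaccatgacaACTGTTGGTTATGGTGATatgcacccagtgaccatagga
Kcna4 (chr2:107296474-107296533, plus strand): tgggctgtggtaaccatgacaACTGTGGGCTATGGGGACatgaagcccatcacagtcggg
Kcna5 (chr6:126533721-126533780, minus strand): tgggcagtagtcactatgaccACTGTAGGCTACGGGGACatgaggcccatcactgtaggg
Kcna6 (chr6:126738623-126738682, minus strand): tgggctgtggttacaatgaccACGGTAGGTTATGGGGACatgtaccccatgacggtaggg
Against Kcna1, the other windows were equal at 42 (Kcna5) to 47 (Kcna3) of 60 bases. No stretch of 88 bases, the read length, was shared between Kcna1, Kcna2, Kcna3 or Kcna4 and any other gene. Between Kcna5 and Kcna6, 4 such stretches were shared, and 2271 of the 5945 stretches of Kcna6 (38.2%) were also found in Kcna5 or in Gm26673, a gene on the opposite strand. Gm26673 was listed at 0 in every library, and the library kit does not mark strand, so reads of this pair cannot be told apart.

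Kcna1 was the alpha subunit transcript found most often in LSO neurons of both classes. The gene lies on the minus strand at chr6:126640397-126646384, and it was detected in 39 of 52 pLSOs (75.0%, exact 95% interval 61.1% to 86.0%) and 12 of 28 LOCs (42.9%, 24.5% to 62.8%). Its level was 0 in the lowest, 6 TPM in the median and 77 TPM in the highest pLSO, against 0, 0 and 68 TPM in LOCs. The classes overlapped over nearly this whole range, and the difference lay in how many neurons held the transcript and in the level of those that did. Among neurons with Kcna1, the median was 14 TPM for pLSOs and 4.5 TPM for LOCs. The mean was 15.3 ± 20.1 TPM (SD over neurons, n = 52) in pLSOs and 5.50 ± 14.1 TPM (n = 28) in LOCs, a ratio of 2.79. Without the neuron at 68 TPM the LOC mean was 3.19 TPM, since this neuron held 44.2% of the class total. On the log2(TPM + 1) scale, the mean was 2.73 ± 2.14 in pLSOs and 1.16 ± 1.78 in LOCs, a difference of 1.57.

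Kcna1 was carried by both firing types of pLSOs. It was detected in 30 of 41 Onset neurons (73.2%, 57.1% to 85.8%) with a mean of 15.2 TPM, and in 9 of 11 Sustained neurons (81.8%, 48.2% to 97.7%) with a mean of 16 TPM. The lowest, median and highest values were 0, 5 and 77 TPM in Onset and 0, 11 and 63 TPM in Sustained neurons. The difference in share, 8.65 points higher in Sustained neurons, was smaller than the width of either interval, and each share lay within the interval of the other. In the negative controls, 2 of 8 held Kcna1, at 21 and 2 TPM (an estimated 37.9 and 1.01 reads), and a control that was left out also held 21 TPM. A level of 21 TPM lies above the median of neurons with Kcna1 in pLSOs (14 TPM) and in LOCs (4.5 TPM). In estimated reads, 37.9 lies below these medians (205 and 92.7 reads). Of the neurons with Kcna1, 5 LOCs and 10 pLSOs held 1 to 3 TPM.

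**Figure D1:**
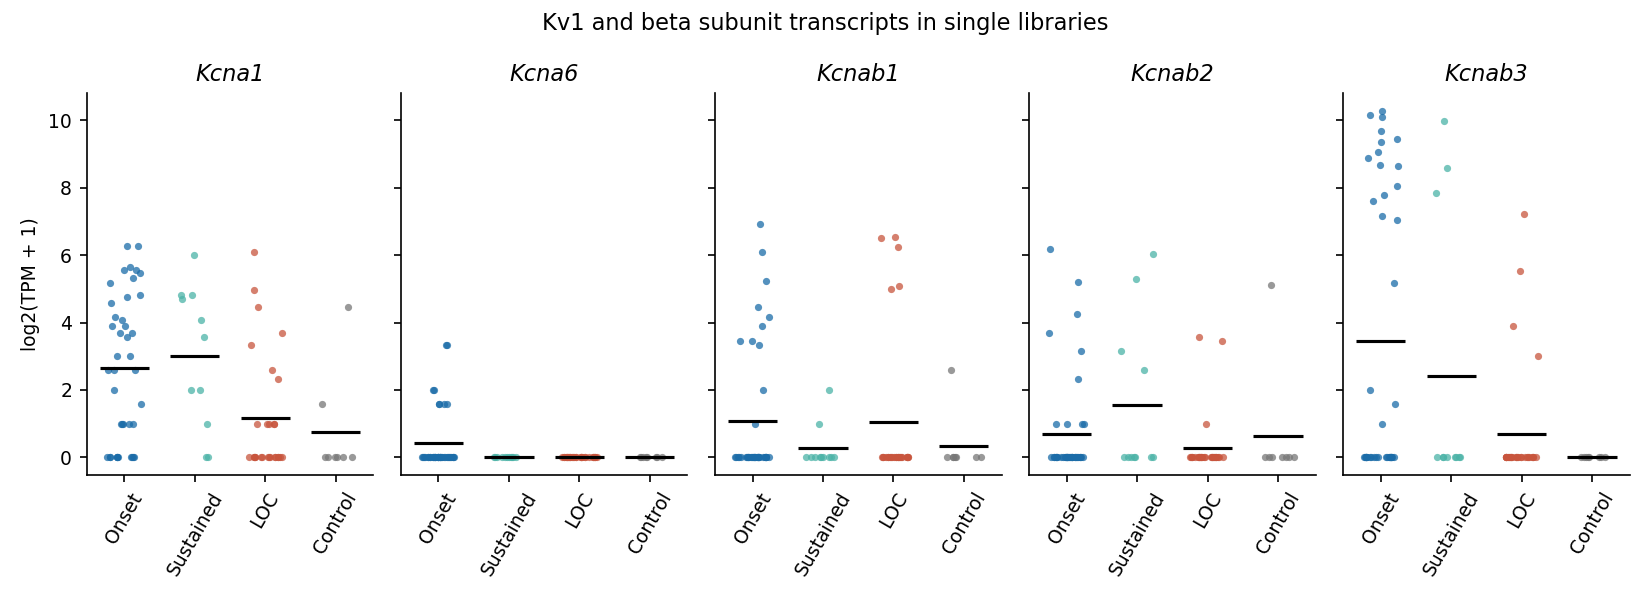
Each point is 1 library, the vertical axis gives log2(TPM + 1), and the black bar is the mean of the group, for Onset (n = 41), Sustained (n = 11), LOC (n = 28) and negative control libraries (n = 8). Kcna1 spreads continuously from 0 to 77 TPM in Onset neurons, whereas Kcnab3 is at 100 TPM or more in 18 of 52 pLSOs and at 35 TPM or less in the others. In the neuron of median scale 1 read is worth 3.46 TPM of Kcnab3 and 0.075 TPM of Kcna1, so the 2 shapes do not compare.

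The other alpha subunits were sparse. Kcna6, on the minus strand at chr6:126708329-126740674, was detected in 8 of 41 Onset neurons (19.5%, 8.82% to 34.9%), at 9, 9, 3, 3, 2, 2, 2 and 2 TPM. It was at 0 in all 11 Sustained neurons, which allows a share of up to 27.3%, in all 28 LOCs, which allows up to 10.7%, and in all 8 controls. The limit for Sustained neurons is above the share in Onset neurons, so a difference between the firing types was not detectable. These values and limits hold only for reads assigned to Kcna6, which shares 39.6% of its exon bases with Gm26673. The effect of this overlap on them was not tested. Kcna2, at chr3:107101146-107115005, was found in 4 Onset neurons, at 15, 6, 3 and 3 TPM, in no Sustained neuron and in 1 LOC, at 10 TPM. Kcna4, which encodes the alpha subunit that inactivates rapidly by itself, was found in 1 Onset neuron at 4 TPM and in 1 LOC at 2 TPM. Kcna3 and Kcna5 were listed at 0 in all 80 neurons and 8 controls. For each of them, 0 of 52 pLSOs allows a share of up to 5.77% at 1 TPM or more. In the neuron of median scale, described further on, a listed 0 could still hold up to 6.66 reads of Kcna3 and 6.11 reads of Kcna5.

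Kcnab3 had the largest difference between the classes in mean log2(TPM + 1) on the deposited scale, an order that turned on the scale per own exon length described further on. It encodes Kvβ3, lies on the plus strand at chr11:69326258-69333042, and was detected in 22 of 52 pLSOs (42.3%, 28.7% to 56.8%), in 4 of 28 LOCs (14.3%, 4.03% to 32.7%) and in 0 of 8 controls, which allows up to 37.5%. In pLSOs the lowest, median and highest values were 0, 0 and 1246 TPM. The 4 LOCs held 148, 45, 14 and 7 TPM. The highest LOC was thus below 16 of the 22 pLSOs that held the transcript. The median of neurons with Kcnab3 was 394 TPM for pLSOs and 29.5 TPM for LOCs. Means were 194 ± 342 TPM (SD, n = 52) and 7.64 ± 28.9 TPM (n = 28), a ratio of 25.4, and the LOC mean was 2.44 TPM without its highest neuron. On the log2(TPM + 1) scale the means were 3.23 ± 4.21 and 0.70 ± 1.86, a difference of 2.53.

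Within pLSOs, most neurons held Kcnab3 either at 0 or at 100 TPM or more on the deposited scale. Such a level can rest on few reads, since 141 TPM in 1 Onset neuron was an estimated 12.0 reads. Of 19 Onset neurons with the transcript (46.3%, 30.7% to 62.6%), 15 held 100 TPM or more, 1 held 35 TPM and 3 held 1 to 3 TPM. The 3 Sustained neurons with it (27.3%, 6.02% to 61.0%) held 1015, 384 and 227 TPM. The mean was 207 TPM in Onset and 148 TPM in Sustained neurons, and 61.1 TPM in the latter without the neuron at 1015 TPM. The intervals of the shares overlap widely. In Onset neurons, log2(TPM + 1) of Kcnab3 ran with the number of genes detected in the neuron (Spearman rho = 0.45, Pearson r = 0.46, n = 41), and the values for Kcna1 were rho = 0.18 and r = 0.18. Over the 52 pLSOs it ran against the summed oligodendrocyte markers (rho = -0.40), with values of -0.08 for astrocyte and 0.08 for microglia markers. The part of gene number or glial RNA in the result was not tested. When only neurons with at least 2000 detected genes were kept (44 pLSOs and 22 LOCs), Kcnab3 was present in 47.7% and 18.2%.

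Kcnab1 and Kcnab2 were each found in about 1 pLSO of 4, with a different distribution over the classes. Kcnab1, at chr3:65109384-65378223, was detected in 13 of 52 pLSOs (25.0%, 14.0% to 38.9%) and 5 of 28 LOCs (17.9%, 6.06% to 36.9%). The 5 LOCs held 92, 90, 75, 33 and 31 TPM. The 11 Onset neurons with Kcnab1 held from 1 to 121 TPM with a median of 14 TPM, and the 2 Sustained neurons held 3 and 1 TPM. The mean was 6.06 ± 19.8 TPM (SD, n = 52) for pLSOs and 11.5 ± 27.6 TPM (n = 28) for LOCs, so that the class with the lower share had the higher mean. Without the neuron at 121 TPM, the pLSO mean was 3.80 TPM. On the log2(TPM + 1) scale the difference, pLSO minus LOC, was -0.14. The LOC library at 75 TPM resembled a library that was left out (Pearson r = 0.96 over all genes, with 0.63 for the next closest pair of libraries), which held 51 TPM of Kcnab1. One control held Kcnab1 at 5 TPM, an estimated 1.88 reads.

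Kcnab2, on the minus strand at chr4:152390742-152477871, was detected in 14 of 52 pLSOs (26.9%, 15.6% to 41.02%) and 3 of 28 LOCs (10.7%, 2.27% to 28.2%). In Sustained neurons it was present in 4 of 11 (36.4%, 10.9% to 69.2%), at 65, 38, 8 and 5 TPM. In Onset neurons it was present in 10 of 41 (24.4%, 12.4% to 40.3%), and 4 of the 10 held 1 TPM while the highest held 72 TPM. The 3 LOCs held 11, 10 and 1 TPM. The mean was 5.19 TPM over all pLSOs, against 0.79 TPM over all LOCs, which rested on 3 neurons and was 0.41 TPM without the highest. One control held Kcnab2 at 34 TPM, which in this shallow library was an estimated 0.99 reads, while pLSOs held up to 679 reads.

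**Figure D2:**
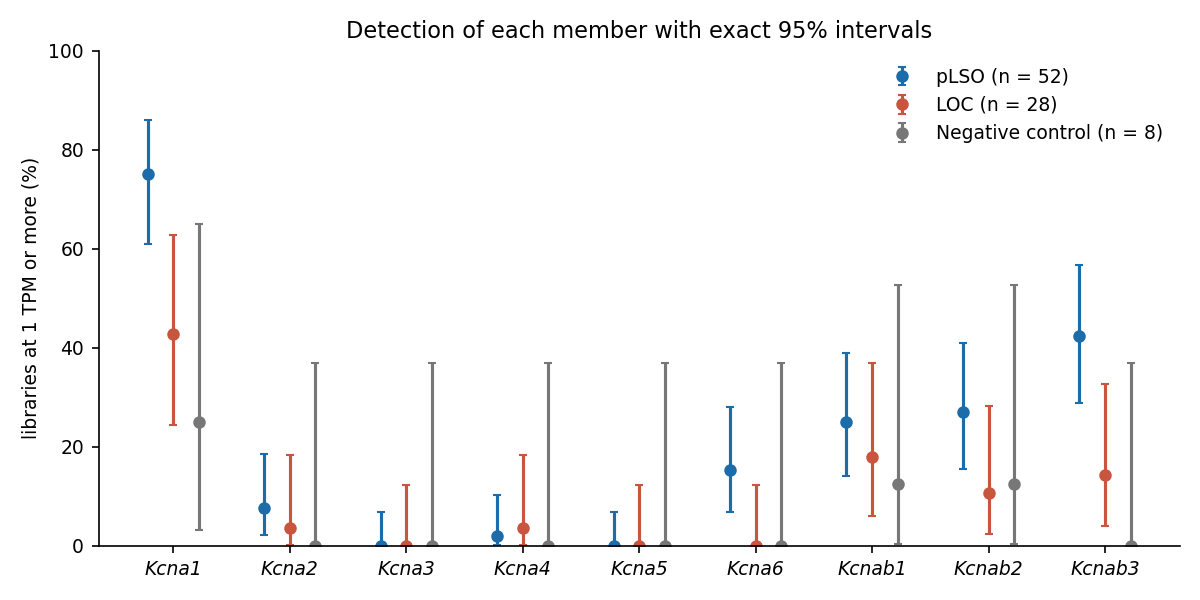
Points give the percentage of libraries with 1 TPM or more for each of the 9 genes, and bars give exact Clopper-Pearson 95% intervals, for pLSOs (n = 52), LOCs (n = 28) and negative controls (n = 8). The points of Kcna1 (75.0% and 42.9%) and Kcnab3 (42.3% and 14.3%) lie farthest apart, and the intervals of each pair still touch.

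Against all genes, the family was described by its difference in share. Of the 10319 genes detected in at least 5% of the 80 neurons, 563 (5.46%) had a share at least 20 percentage points higher in pLSOs, and 335 (3.25%) a share at least 20 points higher in LOCs. Of the 9 members, 6 passed this detection filter, and 2 of these 6, Kcna1 (32.1 points) and Kcnab3 (28.0 points), were at least 20 points higher in pLSOs, while 0 were so in LOCs. Kcnab2 (16.2 points), Kcna6 (15.4 points), Kcnab1 (7.14 points) and Kcna2 (4.12 points) were higher in pLSOs by less. Kcna6 passed the filter through pLSOs alone, so no median is given over the members that passed. Over all 9 members the median difference was 7.14 points, beside 0 over all 38887 genes of the table and 1.92 points over the 15566 detected in any neuron. Between the firing types, 332 genes (3.22%) were at least 20 points higher in Onset and 1108 (10.7%) at least 20 points higher in Sustained neurons, and 0 of the 6 members were in either list. The closest were Kcna6 (19.5 points) and Kcnab3 (19.1 points), both higher in Onset neurons. Kcna6 was above 0 in Onset neurons alone and passed the filter only through them, so no result is drawn from its value.

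An alpha and a beta subunit were found together in a larger share of pLSOs than of LOCs. In pLSOs, 31 of 52 (59.6%, 45.1% to 73.0%) carried at least 1 of each, and in LOCs 6 of 28 (21.4%, 8.30% to 40.95%). Taken separately, an alpha subunit was listed in 43 pLSOs and 14 LOCs, and a beta subunit in 32 and 11. Whether both met more often than these separate counts give was not tested. A pLSO held 1.94 ± 1.24 of the 9 genes (SD over neurons) and at most 5, and a LOC held 0.93 ± 0.77 and at most 2. No member was listed in 8 pLSOs (15.4%) and 9 LOCs (32.1%). The alpha subunit without any beta subunit was seen in 12 pLSOs, and beta without alpha in 1. In LOCs these numbers were 8 and 5. Among controls, 4 of 8 held 1 member each and none held 2.

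Kcna1 was the partner in most of these combinations. All 4 Onset neurons with Kcna2 also held Kcna1, as did all 14 pLSOs with Kcnab2 and 20 of the 22 pLSOs with Kcnab3 (90.9%), beside 75.0% of pLSOs as a whole. Of the 8 neurons with Kcna6, 5 held Kcna1. In LOCs, Kcna1 was present in 1 of 4 neurons with Kcnab3 and in 3 of 5 with Kcnab1, beside 42.9% of LOCs as a whole. All members of a neuron share its library and depth, and the part of depth in these shares was not tested. The most frequent patterns among the 80 neurons were no member (17 neurons), Kcna1 alone (14), Kcna1 with Kcnab3 (7) and Kcna1 with Kcnab2 (6). In no LOC were 2 alpha subunits found, against 9 Onset neurons, and 2 beta subunits or more were found in 15 pLSOs and 1 LOC.

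**Figure D3:**
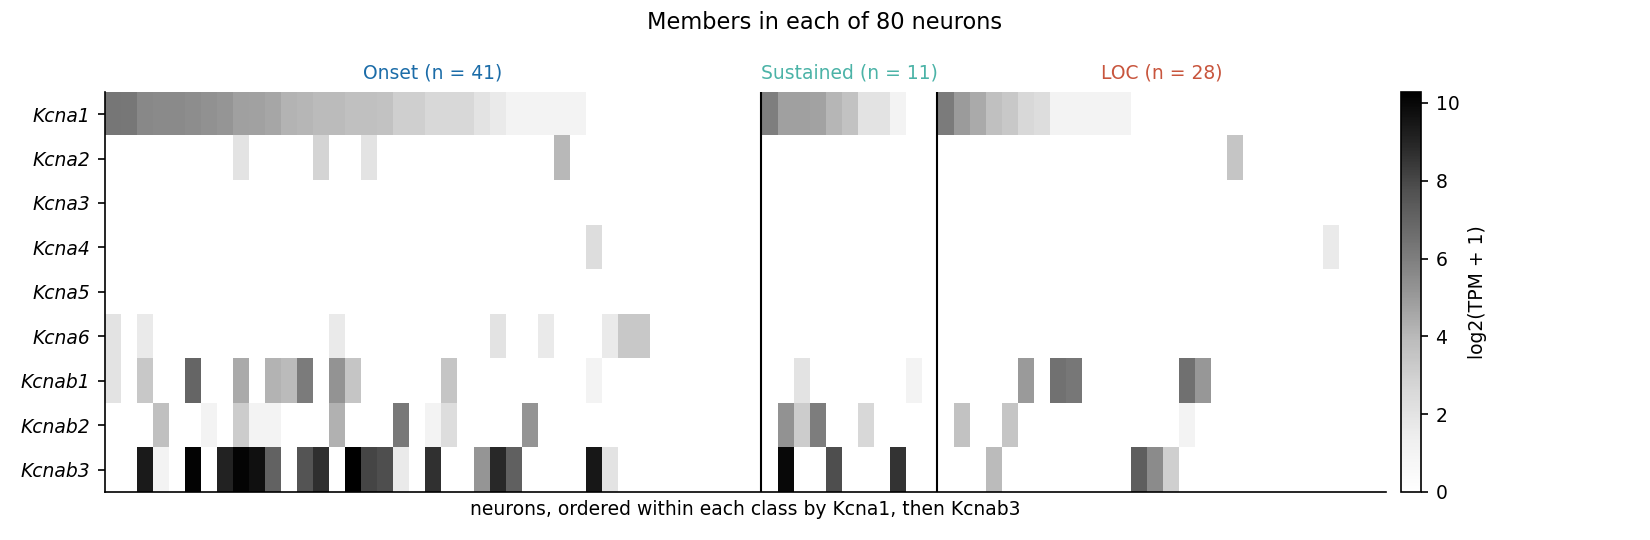
Each column is 1 of 80 neurons, ordered within its class by Kcna1 and then Kcnab3, each row is a gene, and the grey scale gives log2(TPM + 1), with white for 0. The dark cells of Kcnab3 lie almost entirely under Onset and Sustained neurons with Kcna1, and the 3 LOCs with Kcnab3 but without Kcna1 stand to the right of the LOCs with Kcna1.

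Levels of different members can be compared only per length, and the deposited scale does not provide this. The top 530 rows show what 1 read is worth, because the divisor of a read is a small whole number there. Where 1 read was worth 10 TPM or more, 6352 of 6354 values in these rows were whole multiples of the step of their library, within 0.5 TPM. From there the divisor was fitted along the table as a quantity that may not fall from row to row, and over 19739 genes its Spearman rho with the length of the gene's exons was -0.28. The divisor was 15.0 bases (bounds 14.9 to 15.0) for Kcnab3 in row 1942, whose merged exons span 2865 bases, and 690 bases (661 to 708) for Kcna1 in row 14214, whose exons span 4780 bases. One read therefore counted 46.1 times as much TPM for Kcnab3 as for Kcna1, where the exon lengths alone would give 1.67 times. For the other members the exons exceeded the divisor 2.76-fold (Kcna3) to 48.8-fold (Kcnab1). The bounds rest on values already close to whole reads under the fit, so they are no independent error. The fitted divisor of Kcna6, 478.6 bases, lay just outside its own bounds (461.0 to 477.9). Within 1 gene the divisor is the same in every neuron, so it cancels in a ratio between classes, except through the total to which each library was scaled.

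When reads were estimated from these steps, divided by the exon length of each gene and scaled to the same total per library as TPM, the order of the leading members changed. On the deposited scale, the mean of Kcnab3 in pLSOs was 12.7 times that of Kcna1. On the scale per own length, Kcna1 came first with 287 units and Kcnab3 next with 138 units, a ratio of 2.08 in favour of Kcna1. Kcnab2 (26.5 units) and Kcnab1 (15.6 units) followed, then Kcna6 (6.31), Kcna2 (3.20) and Kcna4 (1.34). In LOCs the deposited order Kcnab1, Kcnab3, Kcna1 became Kcna1 (86.6 units), Kcnab1 (27.7) and Kcnab3 (4.42). Of the 20 pLSOs that held both genes, Kcnab3 exceeded Kcna1 in 18 on the deposited scale and in 9 on the scale per own length, so the order of these neighbours varied between neurons. The ratio of class means, pLSO over LOC, was 3.31 for Kcna1 and 31.1 for Kcnab3 on this scale. The difference of mean log2(value + 1), pLSO minus LOC, was 3.01 for Kcna1 and 2.39 for Kcnab3. On the deposited scale these differences were 1.57 and 2.53. The order of the genes thus turned in this measure alone, in which the same 1 is added to values of unlike size. By the ratio of class means Kcnab3 was ahead on both scales, with 25.4 against 2.79 for Kcna1 on the deposited scale.

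**Figure D4:**
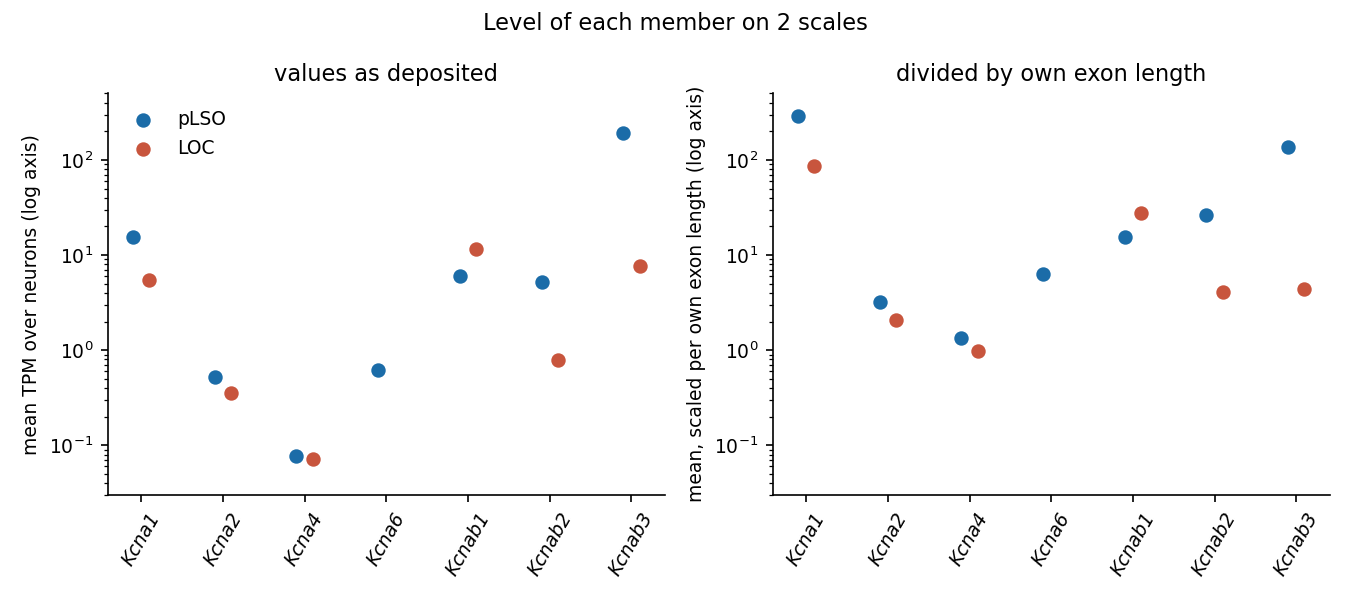
Means over neurons for the 7 members detected in any of them, on a logarithmic axis, for pLSOs (n = 52) and LOCs (n = 28), with the deposited TPM on the left and the values per own exon length on the right. A missing point is a mean of 0. Kcnab3 is highest in pLSOs on the left (194 TPM), and Kcna1 is highest in both classes on the right (287 and 86.6 units).

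The divisor also sets what a listed 0 can hide. In the neuron of median scale, 1 TPM corresponded to 13.3 reads of Kcna1 and to 0.29 reads of Kcnab3. Because values were rounded to whole TPM, a 0 of Kcna1 could hold up to 6.66 reads in that neuron and up to 39.3 in the least favourable one, whereas a 0 of Kcnab3 left room for less than 1 read in every neuron. A floor of 40 estimated reads, the same for every gene and neuron, kept Kcna1 in 59.6% of pLSOs and 21.4% of LOCs, and Kcnab3 in 32.7% of pLSOs and 0% of LOCs. The 4 LOCs with Kcnab3 rested on an estimated 3.97 to 22.9 reads each (median 11.6). In pLSOs with the transcript the estimates ran from 1.20 to 1839 reads (median 118), so the ranges overlapped. Estimated totals were 120708 to 2450465 reads per neuron, with medians of 571332 in pLSOs and 411077 in LOCs. Among the 44 pLSOs and 24 LOCs with at least 300000 reads, the shares with Kcna1 were 72.7% and 50.0%, and those with Kcnab3 43.2% and 12.5%.

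Genes whose products work with Kv1 channels were described from a list of 16. Of these, 12 were detected in at least 5% of neurons, 3 had a share at least 20 points higher in pLSOs and 1 in LOCs. Over all 10319 genes past this filter, the shares were 5.46% and 3.25%. Lgi1, the gene higher in LOCs, passed the filter only through LOCs, and Lgi2 and Cntn2 only through pLSOs, so these counts are descriptions. The median difference over all 16 was 2.20 points, beside the same 0 and 1.92 points. ADAM22 and ADAM23 are catalytically inactive surface receptors for LGI proteins, and ADAM22 is part of Kv1 complexes. Adam22 was detected in 88.5% of pLSOs and 53.6% of LOCs, with means of 21.4 and 7.32 TPM, and Adam23 in 94.2% and 64.3%, with means of 101 and 46.6 TPM. The third gene was Dlg1, which encodes the scaffold SAP97, at 71.2% and 46.4%. Lgi1, which encodes a secreted ligand of these receptors, had the opposite pattern, with 13 of 28 LOCs (46.4%) and 1 of 52 pLSOs (1.92%). Lgi3 was found in 36.5% of pLSOs and 32.1% of LOCs, and Dlg2, encoding PSD-93, in 34.6% and 17.9%.

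Of the genes of the axonal scaffold, Cntnap2 and Epb41l3 were found at similar shares in both classes, with levels that overlapped widely. Cntnap2, which encodes the juxtaparanodal adhesion protein Caspr2, was detected in 63.5% of pLSOs and 64.3% of LOCs, and Epb41l3, encoding protein 4.1B, in 84.6% and 82.1%. The mean of Cntnap2 was 10.0 TPM in pLSOs against 19.4 TPM in LOCs, and the median 2 against 8 TPM. For Epb41l3 the mean was 241 TPM against 171 TPM, and the median 113.5 TPM against 16.5 TPM. Mean log2(TPM + 1) was 2.14 ± 2.04 against 2.76 ± 2.39 for Cntnap2 (SD over neurons). It was 5.54 ± 3.44 against 4.49 ± 3.49 for Epb41l3. Each difference in mean log2(TPM + 1) was smaller than the SD of either class. Cntn2, the axonal partner of Caspr2, was found in 4 pLSOs (7.69%) and in no LOC. The further Kv1 genes were at or near 0, with Kcna7 listed at 0 in all neurons and Kcna10 found in 1 pLSO. Lgi4 was also at 0 in all neurons. Adam11 was found in 15.4% of pLSOs and 14.3% of LOCs, Lgi2 in 17.3% and 0%, and Dlg3 in 3.85% and 7.14%, while Dlg4 was found in 1 LOC and no pLSO.

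**Figure D5:**
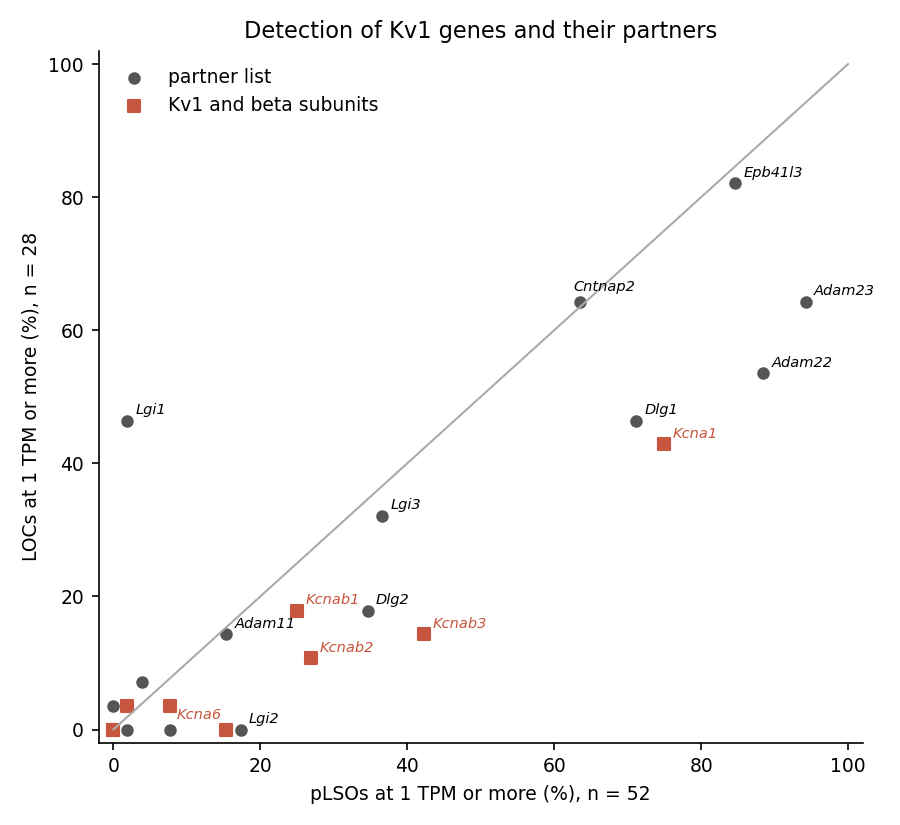
Each point is a gene, placed by the percentage of pLSOs (horizontal, n = 52) and of LOCs (vertical, n = 28) with 1 TPM or more, with the 9 Kv1 and beta subunit genes as squares and the 16 partner genes as circles. The grey line marks equal shares. Kcna1, Kcnab3, Adam22, Adam23 and Dlg1 lie below it by 20 points or more, and Lgi1 lies above it.

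The genes whose pattern was most like that of Kcna1 were sought among the 4799 genes detected in at least 20% of the 80 neurons, by Pearson's r of log2(TPM + 1). They were Ap1s2 (r = 0.41), Tsc22d3 (0.40), Pde4d (0.39), Ccdc86 (0.38) and Mtdh (0.38), all of them weak. Within pLSOs the value for Ap1s2 was 0.45 and within LOCs 0.02. For Kcnab3 the leading genes were Exoc2 (0.54), Bcat1 (0.52), Cpne4 (0.49), Bclaf3 (0.48) and Gsdme (0.46). Kcna1 and Kcnab3 themselves were related by r = 0.32, Kcna1 and Kcnab2 by 0.33, and Kcnab3 and Kcnab2 by -0.01. All points share their library and its depth, and neurons of both classes enter, so these values are descriptions.

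In the recordings, Onset neurons had the lowest and LOCs the highest median input resistance. The median input resistance was 41.7 MΩ in Onset, 88.8 MΩ in Sustained and 549 MΩ in LOC neurons, and the median latency of the action potential at rheobase was 2.40, 3.90 and 19.9 ms. Relations to the 10 features were computed within Onset neurons and within LOCs, not within the 11 Sustained neurons. Of 40 relations in Onset neurons (Kcna1 and the 3 beta subunits), Spearman's rho ran from -0.34 to 0.27, and 2 reached a size of 0.3. Both belonged to Kcna1, with the membrane time constant (rho = -0.34, r = -0.35, and r = -0.31 without the 2 neurons farthest from the median of Kcna1) and with the input resistance (rho = -0.33, r = -0.21, and -0.16 without these neurons). For the latency of the action potential, the values of Kcna1 were rho = -0.29 and r = -0.37. In LOCs only Kcna1 was frequent enough, and its 10 relations lay between -0.19 and 0.13 over 19 to 28 neurons. For Kcnab3 in Onset neurons, no rho was above 0.20 in size.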

How the data were processed

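The cytoplasm of single patched LSO neurons was amplified by a modified Smart-seq2 protocol, which keeps no strand and uses no molecular identifiers. The authors trimmed reads with Trim Galore 0.4.2, aligned them to mm10 with STAR, marked duplicates with Picard 1.115, and summarised them to Gencode genes with featureCounts. The deposited values are TPM rounded to whole numbers, treated here as a score, since their divisor follows the row of the table. All 96 columns were matched to samples by title.

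Genes were named and placed by Gencode vM21 (GRCm38). A gene was detected at 1 TPM or more. Shares carry exact Clopper-Pearson 95% intervals, and 0 of n neurons the limit of 3 over n. Reads were estimated from the value of 1 read per library and a monotone fit of the divisor by row. A trial on simulated data began near the true divisor, which was itself monotone by row. It is therefore no check of the divisors fitted here. Merged exon length served for the scale per own length. The genes named were all 9 members and the partner list (1 further gene of that list is not reported here), with the 5 genes of highest r for Kcna1 and Kcnab3. Members and lists were chosen with earlier results of these data known. Python 3.11.15, pandas 2.3.3, SciPy 1.17.1 and scikit-learn 1.9.0 were used. Alternatives were the threshold, the set of neurons, the pseudocount and the scale. The floor of 40 reads and the 300000-read set were chosen after seeing the data.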

Additional observations from a re-analysis of the deposited data

Results flagged for a closer look

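Among the 8 negative controls, 1 library stood apart from the rest for Kcna1 (21 TPM), 1 for Kcnab1 (5 TPM) and 1 for Kcnab2 (34 TPM), by the gap to the nearest other control relative to the range. For Kcnab1 and Kcnab2 the other 7 controls were at 0, so that any gene seen in a single control is marked in this way, and the values rest on an estimated 1.88 and 0.99 reads. A control that was left out also held Kcna1 at 21 TPM. The usual rate of such marks by chance, about 1 group in 20, does not hold for values that are mostly 0. Libraries left out of all comparisons held members above the level in the controls. The library cell_39, labelled Onset, held Kcnab3 at 1045 TPM. The library cell_78, labelled LOC, held Kcnab3 at 17 TPM. The library cell_85, labelled LOC, held Kcnab1 at 51 TPM. The library cell_54, labelled Sustained, held Kcna3 at 13 TPM, the one value above 0 of this gene among all 96 libraries.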

How the results depend on the processing

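No paired analysis was possible because the labels tie no neurons to an animal or batch. The shares of neurons with Kcna1 moved with the threshold, to 55.8% of pLSOs and 21.4% of LOCs at 5 TPM, 46.2% and 14.3% at 10 TPM, and 59.6% and 21.4% at 40 estimated reads. Kcnab3 in LOCs went to 0% at 40 reads. Members per neuron were 1.12 in pLSOs and 0.54 in LOCs at 10 TPM, and 0.46 in LOCs at 40 reads. The log2 difference of Kcna1 was 2.64 with a pseudocount of 0.1 TPM, 0.61 with 10 TPM and 3.01 per own length, and that of Kcnab3 was 1.66 with 10 TPM and 2.39 per own length. The difference of Kcnab1 turned from -0.14 to 0.037 with a pseudocount of 0.1 TPM, and was -0.33 over all labelled neurons, -0.42 with 2000 genes and -0.39 with 300000 reads. The share of all genes past 20 points in either direction was 8.70%, and 5.77% without the detection filter. Under every setting run, the shares of Kcna1 (22.7 to 38.2 points) and Kcnab3 (22.3 to 32.7 points) stayed higher in pLSOs. For Kcnab1 the order of the shares turned at 5 TPM (17.3% of pLSOs, 17.9% of LOCs), at 10 TPM and at 40 reads (15.4% and 17.9% each), and for Kcna2 at 10 TPM (1.92% and 3.57%).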
